A study of Mus musculus with 16 samples.

Results

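Cish encodes CIS, an SH2 protein that binds activated cytokine receptors and dampens STAT5 signalling. It was described together with 9 genes of the same circuit. These were the other feedback inhibitors Socs1, Socs2 and Socs3, the receptors Prlr (prolactin) and Ghr (growth hormone), the kinase Jak2, the transcription factors Stat5a and Stat5b, and the repressor Bcl6. The 10 genes were taken by symbol from the table of estimated counts, and all 10 of its 23224 genes with these symbols were found and were among the 16084 genes with enough counts to be tested. Cish was chosen by its measured CPM in these libraries, because it lay on opposite sides of the B6 controls in the 2 comparisons of the study, so its levels and fold changes are a description and carry no test. The other 9 genes were listed for their place in the circuit, with earlier results of these data known.

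The libraries held polyA RNA of pancreatic neuroendocrine tumours from RIP1Tag2 mice aged 14 to 16 weeks, at end stage. In these mice the rat insulin promoter drives the SV40 T antigens, so that tumours arise from the insulin-producing beta cells. All 3 groups carried the transgene. There were 7 libraries of controls on the C57Bl/6 background (B6 controls), 4 of controls on the C3HeB/Fe background (C3H controls) and 5 of B6 mice given MK801. MK801 blocks the NMDA receptor, a glutamate-gated ion channel, and was injected into the peritoneum at 1 mg/kg once a day for 3 days. Controls of both strains were untreated or received saline, and the labels do not say which library is which. They also do not say whether the libraries of a group are from different animals.

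Growth hormone and prolactin receptors have no enzyme activity of their own and work through the bound kinase JAK2, which phosphorylates STAT5A and STAT5B. The phosphorylated STAT5 proteins pair, enter the nucleus and bind DNA at palindromic sites, and Cish and Socs2 are among the genes that respond fastest. Their proteins then bind the receptor or its complex and dampen the signal, so the transcripts are widely used as readouts of STAT5 activity. In beta cells the circuit is known for the growth of islets in pregnancy, when prolactin and placental lactogens act through PRLR, and BCL6 can occupy STAT5 sites as a repressor. No protein, phosphorylation or hormone was measured here.

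The sequence context is shown because the sites that STAT5 pairs bind are what links these genes in textbook accounts of the circuit. The motif TTCNNNGAA, which reads the same on both strands, was searched in RefSeq promoter windows of 300 bases, 250 before and 50 after each annotated start, on GRCm38.p6. Windows were given for 9 of the 10 genes, and 4 of the 9 held a match in at least 1 window, as did 9.2% of all genes with windows. The 9 genes had 15 windows, against 19015 for all 15680 genes, so the number of windows per gene was not alike. Each stretch below is written 5′ to 3′ on the strand of its gene, with the motif in capitals.
Cish, chr9:107296644-107296683 (+): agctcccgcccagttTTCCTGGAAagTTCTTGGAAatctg
Socs3, chr11:117969497-117969535 (-): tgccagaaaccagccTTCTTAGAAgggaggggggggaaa
Prlr, chr15:10223781-10223819 (+): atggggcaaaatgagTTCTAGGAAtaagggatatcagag
Bcl6, chr16:23981348-23981466 (-): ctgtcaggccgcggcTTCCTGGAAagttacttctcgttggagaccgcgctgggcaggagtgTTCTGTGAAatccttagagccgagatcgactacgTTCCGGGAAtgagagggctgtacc

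The Cish window held 2 matches separated by 2 bases, the nearer one beginning at the annotated start itself and the other 11 bases into the transcript. Among the 19015 windows of 15680 genes in the count table, 7.91% held at least 1 match and 0.436% held at least 2. The second of the Bcl6 windows held 3 matches, as did 3 windows in all (0.0158%). Its first window held 1 further match, while Prlr had 1 match in the second of its windows, 101 bases before that start. Socs3 had 1 match 145 bases before the start. The windows of Socs1, Ghr, Jak2, Stat5a and Stat5b held none, which says only that these letters are not in these windows. With 1 more base between the half-sites, 0 of the 9 genes and 7.46% of all genes had a match. A match is a run of letters and not a measured binding site.

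Cish was the member with the largest fold differences from the B6 controls in both comparisons. In the B6 controls it ranged from 2.27 to 11.1 CPM (counts per 1e+06 in the scaled library), with a median of 7.01. In the C3H controls it was at 24.0, 44.2, 48.7 and 61.4 CPM. After MK801 it was at 2.17, 1.5, 2.01, 1.51 and 2.08 CPM. The groups did not overlap: each C3H library lay above each B6 control, and each MK801 library lay below each B6 control, although the lowest B6 control, replicate 6 at 2.27 CPM, lay just above the highest MK801 library. Over all genes tested, 1.5% lay above every B6 control in all C3H libraries and 1.14% lay below every B6 control in all MK801 libraries. Since Cish was chosen by this pattern, nothing is read from these shares.

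Group means of Cish were 44.6 ± 15.5 CPM (SD, n = 4) in the C3H controls, 6.59 ± 2.88 CPM (SD, n = 7) in the B6 controls and 1.86 ± 0.325 CPM (SD, n = 5) after MK801. These levels rest on 948 to 3174 estimated counts per library in the C3H controls, 92 to 490 in the B6 controls and 68 to 115 after MK801. The fitted log2 fold change against the B6 controls was 2.76 (SE 0.336) for C3H, a 6.77-fold higher level, and -1.83 (SE 0.342) for MK801, a 3.55-fold lower level. Leaving out any 1 library kept these between 2.56 and 2.96 and between -1.98 and -1.65. Both fold changes use the same B6 controls, so they are not independent of each other. In bulk tumour RNA, fewer cells of a type and less RNA per cell cannot be told apart.

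Markers of other cell types moved with Cish in part, and their values are given here. The summed level of 7 B cell and plasma cell markers was 11.6 to 14.9 CPM in the C3H controls, 4.44 to 9.10 CPM in the B6 controls and 1.15 to 3.51 CPM after MK801. Most of the C3H excess lay in Igj, the joining chain of antibodies made by plasma cells. Without Igj the sums were 2.27 to 6.03 CPM in C3H, 2.42 to 7.42 CPM in B6 controls and 0.796 to 2.34 CPM after MK801. Pax5, the defining transcription factor of B cells, had 0 to 6 counts in any library. Cd79b, a B cell receptor subunit, was lower in C3H (log2 fold change -1.70, adjusted p = 0.0331 by edgeR). The plasma cell marker Mzb1 was at 0.398 to 0.608 CPM in C3H, on 17 to 24 counts. It was at 0.148 to 0.455 CPM in B6 controls and 0.0221 to 0.655 CPM after MK801. Of the 6 markers tested, 3 had a positive and 3 a negative log2 fold change in C3H, and all 6 a negative one after MK801. The summed level of 11 T and NK cell markers was 43.3 to 123 CPM in B6 controls, 46.6 to 84.1 CPM in C3H controls and 30.0 to 85.4 CPM after MK801. Macrophage markers summed to 978 to 1703 CPM in B6 controls, 850 to 1098 CPM in C3H controls and 647 to 955 CPM after MK801, where all libraries lay below the B6 controls. Fibroblast and mural cell markers summed to 767 to 1495 CPM, 589 to 1250 CPM and 410 to 675 CPM in the same order, again without overlap between MK801 and B6 controls. Markers of other islet cells were at 68.8 to 347 CPM in B6 controls, 219 to 2286 CPM in C3H controls and 28.1 to 505 CPM after MK801. With a leukocyte score of macrophage, T and NK cell genes as a covariate, the Cish log2 fold change was 2.76 for C3H and -1.81 for MK801. With a score of acinar digestive enzyme genes it was 2.91 and -1.83. The leukocyte score was itself mostly lower after MK801, at 1.92 to 3.23 against 2.71 to 4.02 in B6 controls. That fit therefore cannot tell leukocytes and MK801 apart. The part of any of these cell types in the Cish levels was not tested.

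**Figure D1:**
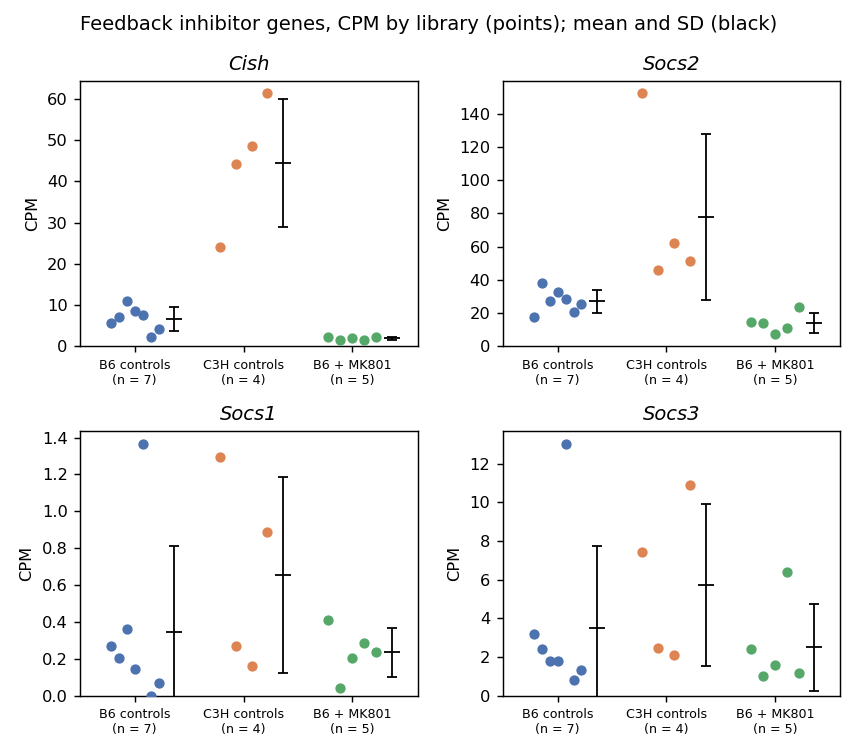
Levels of the 4 feedback inhibitor genes in CPM (linear axes from 0) in each library (points) of the B6 controls (n = 7), C3H controls (n = 4) and MK801-treated B6 mice (n = 5), with the mean and SD beside each group in black. For Cish the groups do not overlap, and for Socs2 the C3H libraries lie above all B6 controls with 1 library at 153 CPM, while Socs1 and Socs3 overlap between all groups.

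Socs2, the inhibitor best known for restraining growth hormone receptor signalling, was the closest to Cish in its pattern among the other 9 genes. It ranged from 17.5 to 37.8 CPM in the B6 controls, with a median of 26.9. In the C3H controls it was at 153, 45.9, 62.1 and 51.4 CPM. After MK801 it was at 14.5, 13.8, 7.52, 11.1 and 23.5 CPM. The C3H libraries all lay above the B6 controls, with replicate 1 far above the other 3, and the MK801 libraries were mostly below the B6 controls but overlapped them.

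Socs2 was higher in C3H by 1.53 on the log2 scale (SE 0.333, adjusted p = 0.0213 over all genes by edgeR's quasi-likelihood test), a 2.89-fold difference. The call was lost without C3H replicate 1, at a log2 fold change of 0.97 and an adjusted p of 0.112 by the same test, and held when any other library was left out. With the replicate number as a block it was also lost, at 1.42 and an adjusted p of 0.183 by edgeR. After MK801 the log2 fold change of Socs2 was -0.94 (SE 0.328), which did not pass at an adjusted p of 0.215 by edgeR. The C3H library highest in Socs2 was the lowest of its group in Cish.

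Socs1 and Socs3 encode inhibitors that act mainly on JAK kinases and on interleukin-6 family receptors. Neither passed in either comparison, and their levels were low. Socs3 was at 0.813 to 13.0 CPM in the B6 controls, 2.13 to 10.9 CPM in C3H and 1.02 to 6.42 CPM after MK801. Socs1 was at 0 to 1.36 CPM, 0.164 to 1.29 CPM and 0.0442 to 0.410 CPM in the same order.

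Both genes were highest in the same libraries: B6 control replicate 5 and C3H replicates 1 and 4 had the 3 highest values of each. Those 3 libraries also had the 3 highest values of the GC trend, the rank correlation across genes between a library's log2 deviations and transcript GC content, at 0.588, 0.457 and 0.322. With that trend as a covariate the log2 fold changes in C3H were 0.43 for Socs1 and 0.30 for Socs3, against 0.91 and 0.72 without it. None of these passed the threshold.

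The receptors were measured at very different levels. Ghr, the growth hormone receptor, was at 155 to 440 CPM in the B6 controls, 283 to 485 CPM in C3H and 322 to 514 CPM after MK801, and all 3 groups overlapped. Its log2 fold changes were 0.21 (SE 0.243) for C3H and 0.33 (SE 0.227) for MK801, with adjusted p of 0.756 and 0.660 by edgeR.

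Prlr, the prolactin receptor, varied more between libraries of a group, relative to its mean, than any other member with at least 5 CPM on average. In the B6 controls it was at 8.57 to 70.0 CPM with a median of 19.6. In C3H it was at 7.02, 27.9, 134 and 51.5 CPM, and after MK801 at 24.0, 26.2, 8.03, 12.8 and 16.9 CPM. The C3H controls spanned a range from below all B6 controls to above all of them. Neither comparison passed, with log2 fold changes of 1.02 (SE 0.646, adjusted p = 0.533 by edgeR) for C3H and -0.63 (SE 0.627, adjusted p = 0.818) for MK801.

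Jak2, the kinase shared by both receptors, showed a small difference with little overlap. It was at 36.04 to 55.6 CPM in the B6 controls, with a median of 47.3, and at 58.1, 60.0, 63.1 and 75.7 CPM in C3H. After MK801 it was at 53.0, 50.04, 51.4, 54.5 and 60.8 CPM. All 4 C3H libraries lay above the 7 B6 controls, and the MK801 libraries overlapped the upper end of the B6 controls. The log2 fold change in C3H was 0.45 (SE 0.122), which did not pass with edgeR (adjusted p = 0.0685). It passed with DESeq2 (adjusted p = 0.00616), with the acinar score as a covariate in edgeR (adjusted p = 0.0401) and without B6 control replicate 5 (adjusted p = 0.0358). It did not pass with limma-voom (adjusted p = 0.0755). In edgeR it also did not pass with the 2 groups alone (adjusted p = 0.188) or without C3H replicate 4 (0.36, adjusted p = 0.2385). For MK801 the log2 fold change of Jak2 was 0.20 (SE 0.115, adjusted p = 0.559 by edgeR).

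Stat5a and Stat5b lie next to each other in the genome and are close copies, so how the estimated counts divide shared reads between them is uncertain. Stat5b was at 71.0 to 138 CPM in the B6 controls, 124 to 154 CPM in C3H and 78.8 to 168 CPM after MK801. Stat5a was at 19.1 to 54.3 CPM, 25.7 to 42.6 CPM and 18.3 to 51.5 CPM in the same order. The groups overlapped for both. The log2 fold change of Stat5b in C3H was 0.41, with a 95% interval from -0.04 to 0.86 and an adjusted p of 0.421 by edgeR. The other 3 log2 fold changes of the pair lay between -0.17 and 0.10. Bcl6 was at 3.89 to 11.7 CPM in the B6 controls, 4.37 to 12.7 CPM in C3H and 5.61 to 12.7 CPM after MK801, with log2 fold changes of -0.22 and 0.29 and adjusted p of 0.818 and 0.845 by edgeR.

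**Figure D2:**
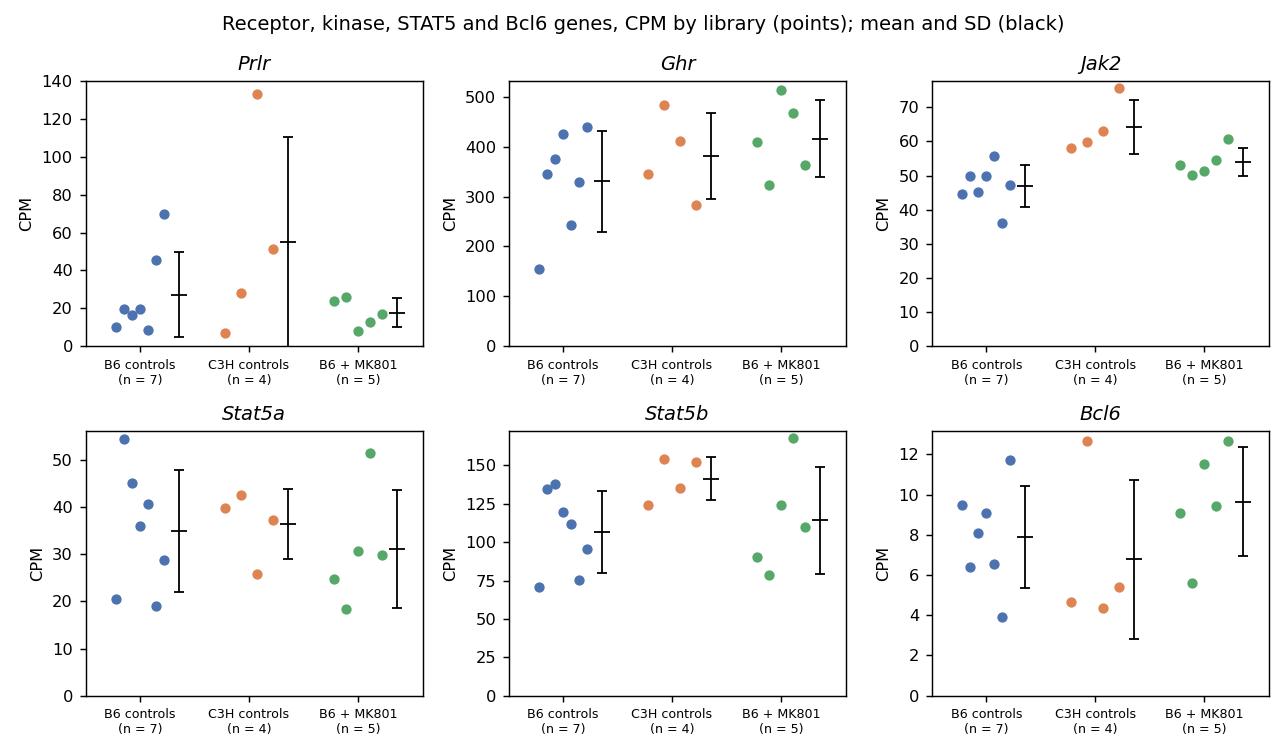
Levels of the receptor genes Prlr and Ghr, the kinase gene Jak2, the STAT5 genes and Bcl6 in CPM (linear axes from 0) in each library (points) of the B6 controls (n = 7), C3H controls (n = 4) and MK801-treated B6 mice (n = 5), with the mean and SD in black. Jak2 lies higher in the 4 C3H libraries, from 58.1 to 75.7 CPM, than in the 7 B6 controls, while the other 5 genes overlap between the groups.

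Among the 9 genes other than Cish, 1 was called higher and 0 lower in C3H by edgeR. Over all 16084 genes tested, 0.883% were called higher and 1.52% lower in that comparison. At an unadjusted p below 0.05 there were 2 higher (Socs2 and Jak2) and 0 lower, against 4.91% and 8.93% of all genes. These 2 were also the genes whose C3H libraries did not overlap the B6 controls, against the 1.5% of all genes given above. After MK801, 0 of the 9 were called by edgeR, DESeq2 or limma-voom, against 0.149% called higher and 0.473% lower over all genes by edgeR. Socs2 alone had an unadjusted p below 0.05 in edgeR, with a lower level, as had 8.5% of all genes, and 0 of the 9 had groups without overlap. The median log2 fold change of the 9 genes was 0.45 in C3H and -0.17 after MK801, and over all genes it was -0.03 in each.

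**Figure D3:**
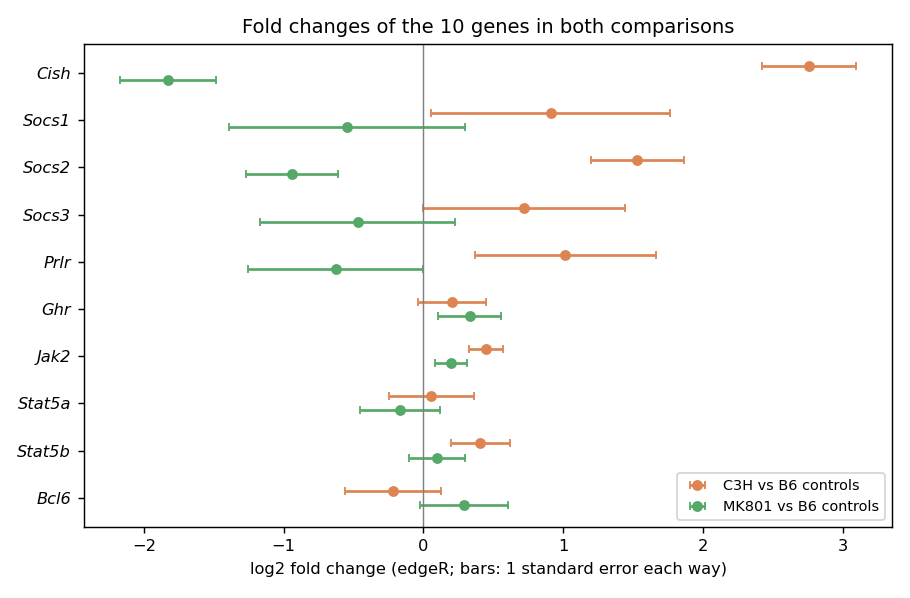
Log2 fold changes of the 10 genes against the B6 controls from the edgeR fit (points, with 1 standard error each way), for C3H controls and for MK801-treated mice. Cish stands farthest from 0 on both sides, at 2.76 and -1.83, followed by Socs2 at 1.53 and -0.94, while both comparisons share the same 7 control libraries.

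Levels of different genes were compared per length, in CPM per kilobase, taking for each symbol its longest transcript in GENCODE M21. In the B6 controls Ghr came first at 79.2 CPM per kilobase, followed by Stat5b at 20.4, Jak2 at 9.34, Stat5a at 8.81 and Socs2 at 6.37. Prlr followed at 2.74, Bcl6 at 2.01, Cish at 1.40, Socs3 at 1.37 and Socs1 at 0.119. Over the B6 control libraries the range of Ghr overlapped that of no other member. Stat5b, lowest at 13.6, did not overlap Jak2, highest at 11.1, but overlapped Stat5a, highest at 13.7 CPM per kilobase. From Jak2 down, the range of each gene overlapped that of the next. The places are those of the group means. All genes were measured in the same libraries, so overlapping ranges do not tell whether an order held inside each library.

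By its mean Cish thus stood eighth among the 10 genes in the B6 controls. In C3H it stood at 9.49 ± 3.31 CPM per kilobase (SD, n = 4), place 5 of the 10, just above Stat5a. After MK801 it stood at 0.395 ± 0.0692 CPM per kilobase (SD, n = 5), place 9. The reported level depends on the transcript length used, and with the mean transcript length Cish was at 2.97 CPM per kilobase in the B6 controls, again eighth. The order of the others did change with that length: Socs2 moved from place 5 to 3, Jak2 from 3 to 5, Socs3 from 9 to 7 and Bcl6 from 7 to 9.

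Whether Cish varied together with another member inside the groups was asked with the group means removed, since these carry the pattern for which Cish was chosen. Over the 16 libraries, Jak2 had the highest correlation with Cish (Pearson r = 0.692, permutation p = 0.0159, Spearman rho = 0.635, permutation p = 0.0157). It did not pass after adjustment over the 9 pairs (adjusted p = 0.143 and 0.141). When B6 control replicate 6 and C3H replicate 1 were left out, which lie farthest from the median in Cish, r was 0.295. Without B6 control replicate 6 alone r was 0.432, and without C3H replicate 1 alone it was 0.666, so the relation rests mostly on the former. Without B6 control replicate 3, r was 0.818 and the permutation test passed (adjusted p = 0.0140).

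Stat5b followed at r = 0.522 (permutation p = 0.0383, adjusted p = 0.172, rho = 0.515), and Socs2 was near 0 at r = -0.043 (permutation p = 0.868, rho = 0.141). In all, 0 of the 9 pairs passed. Within the 7 B6 controls alone, Stat5a and Stat5b each had r = 0.765 with Cish (two-sided exact permutation p = 0.0409 and 0.0395, both 0.177 adjusted over 9 pairs).

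The genes whose log2 CPM followed Cish most closely over the 16 libraries were sought among 12897 genes whose log2 CPM averaged 1 or more. The libraries share groups, so these correlations are a description. The 5 highest were Igj (Pearson r = 0.938), the predicted gene Gm14005 (0.910), the histocompatibility gene H2-K2 (0.894), Hemk1 (0.884), a methyltransferase gene, and Ncf4 (0.883), a subunit of the phagocyte oxidase. With the group means removed, r was 0.459 for Igj, 0.329 for Gm14005, 0.705 for H2-K2, 0.613 for Hemk1 and 0.223 for Ncf4. By Spearman's rho, 2 of these 5 genes were among the 5 highest.

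Hemk1 is the next protein-coding gene to Cish in the RefSeq gene order on chromosome 9. It was at 3.45 to 13.1 CPM in the B6 controls, 22.8 to 33.1 CPM in C3H and 4.95 to 9.74 CPM after MK801. Its C3H libraries lay above all others, as for Cish, while its MK801 libraries overlapped the B6 controls, unlike those of Cish. Igj was at 1.44 to 4.46 CPM in the B6 controls, 7.68 to 10.1 CPM in C3H and 0.354 to 1.27 CPM after MK801, without overlap on either side. H2-K2 was at 1.13 to 12.4 CPM, 31.9 to 38.3 CPM and 2.28 to 4.56 CPM in the same order of groups. It belongs to a family of similar genes, so its counts are uncertain.

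The 3 lowest correlations were those of Eri2 (-0.904), Thumpd1 (-0.902) and Coil (-0.898). Eri2 was at 53.7 to 113 CPM in the B6 controls, 29.9 to 42.7 CPM in C3H and 74.7 to 89.6 CPM after MK801. Among the other members Socs2 came closest to Cish, at r = 0.819 and place 51 of the 12897 genes. Jak2 stood at 0.563 and Stat5b at 0.507, and Bcl6 was the lowest of the members ranked at -0.286. Socs1, with a mean log2 CPM of -1.76, was not ranked.

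**Figure D4:**
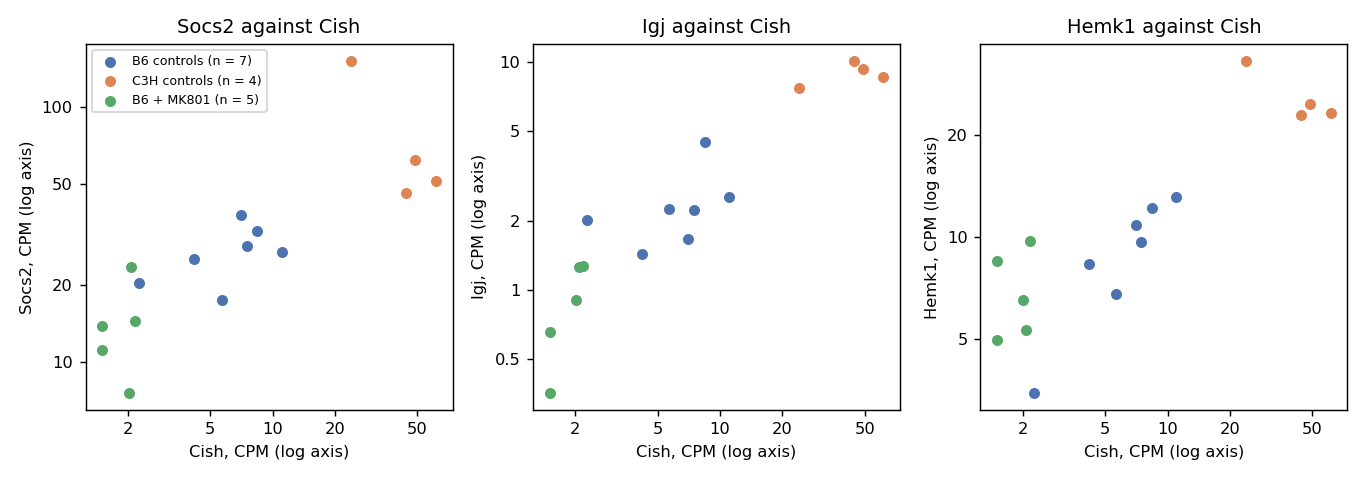
Levels of Socs2, Igj and Hemk1 (vertical, CPM on a log axis) against those of Cish (horizontal, CPM on a log axis), 1 point per library, coloured by group (B6 controls n = 7, C3H controls n = 4, MK801 n = 5). The C3H libraries lie to the upper right in each panel, and the C3H library with the lowest Cish, 24.0 CPM, has the highest Socs2 and Hemk1 of its group.

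The wider pathway was followed in 90 other genes in 6 lists, of which 77 were tested. In C3H 0 were called higher and 1 lower by edgeR, against 0.883% and 1.52% of all genes. The median log2 fold change was 0.06. After MK801 0 were called higher and 2 lower, against 0.149% and 0.473% of all genes, with a median of -0.14. At an unadjusted p below 0.05, 19 had a lower level and 2 a higher one. Over all genes these shares were 8.5% and 3.5%. DESeq2 called 9 of the 77 after MK801, all lower, against 3.33% of all genes called lower.

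The ligands were mostly at or near 0. Of 19 hormone and cytokine genes, 10 had at most 5 counts in every library, among them Gh with at most 1 count and Prl, the placental lactogens Prl3b1 and Prl3d1 and Epo with 0 counts. A count of 0 allows up to 3 counts, which corresponds to 0.0542 to 0.0775 CPM by library and covers counting error only. Hormones reaching the tumour from the pituitary would not appear as transcripts there. Of the 9 ligand genes tested, Tslp, an epithelial cytokine, fell in C3H to 0.310 to 0.538 CPM, from 0.700 to 2.29 CPM in the B6 controls (log2 fold change -1.54, SE 0.376, adjusted p = 0.0410 by edgeR). That call held in 4 of the 11 fits that each left out 1 library. Il6 had a log2 fold change of -2.16 after MK801 (SE 0.590), which did not pass (adjusted p = 0.104 by edgeR), and its levels were below 1 CPM in every library.

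Of 20 other cytokine receptor genes tested, 0 passed in C3H and 1 passed after MK801, with a lower level. Over all genes 0.473% were called lower after MK801. Il2rg, the common gamma chain of interleukin receptors on lymphocytes, fell from 10.9 to 22.1 CPM in the B6 controls to 4.45 to 7.99 CPM after MK801, without overlap. Its log2 fold change was -1.32 (SE 0.254, adjusted p = 0.0305 by edgeR), and in C3H it was 0.06 (adjusted p = 0.935). The call held in 6 of the 12 fits that each left out 1 library. Il21r, which pairs with that chain, stood at -1.16 after MK801 (SE 0.274, adjusted p = 0.0686 by edgeR).

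Markers of leukocytes moved with Il2rg. Of 11 T and NK cell markers tested, 9 had an unadjusted p below 0.05 and a lower level after MK801, as did 8 of 10 macrophage markers, where 8.5% of all genes did, and 0 of either list passed after adjustment by edgeR. With the leukocyte score as a covariate, Il2rg stood at -0.65 on the log2 scale (adjusted p = 0.979 by edgeR) and the cyclin gene Ccnd1 at -0.95 against -0.97 without the score (adjusted p = 0.979). With it 0 pathway genes were called, and over all genes 1 was called higher and 0 lower after MK801.

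The other Janus kinases and STATs showed 0 calls among 8 genes in each comparison. After MK801 all 8 had negative log2 fold changes, with a median of -0.44 against -0.03 over all genes. Of the 8, 4 had an unadjusted p below 0.05 and a lower level, where 8.5% of all genes did. Stat4 was at 0.491 to 2.42 CPM over all libraries, with log2 fold changes of -0.77 in C3H and -0.95 after MK801, neither past the threshold.

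Of 14 other feedback genes, among them further SOCS genes, PIAS genes and phosphatases, 0 were called in either comparison. Socs5 had the smallest p, with a log2 fold change of 0.47 in C3H (SE 0.178, adjusted p = 0.233 by edgeR) and 0.03 after MK801. Its C3H libraries, at 35.5 to 44.8 CPM, lay above the B6 controls at 21.1 to 34.6 CPM. Ptpn1, the phosphatase PTP1B that acts on JAK2, had log2 fold changes of 0.28 and 0.39, neither past the threshold.

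Of 15 further STAT5 target genes tested, 0 passed in C3H and 1 after MK801, where 0.473% of all genes were called lower. Ccnd1, the G1 cyclin D1, fell from 32.4 to 51.7 CPM in the B6 controls to 14.4 to 28.6 CPM after MK801, without overlap. Its log2 fold change was -0.97 (SE 0.204, adjusted p = 0.0424 by edgeR), and in C3H it was at 33.3 to 59.8 CPM with a log2 fold change of -0.01. The call held in 3 of the 12 fits that each left out 1 library, although the log2 fold change stayed between -1.10 and -0.86. Serpina3g, a protease inhibitor gene, stood at -1.81 after MK801 (SE 0.512) and did not pass (adjusted p = 0.113 by edgeR). The median log2 fold change of the list was -0.02 in C3H, where Cish and Socs2 were higher, and -0.14 after MK801.

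Of 14 genes known to respond to prolactin or pregnancy in islets, 0 were called in either comparison, and the medians were 0.01 in C3H and 0.13 after MK801. Birc5, which encodes survivin, had a log2 fold change of -0.75 in C3H (SE 0.231, adjusted p = 0.121 by edgeR) and was at 33.6 to 58.2 CPM there, against 49.5 to 105 CPM in the B6 controls. Tnfrsf11b, which encodes the prolactin-responsive decoy receptor osteoprotegerin, stood at -1.35 after MK801 (SE 0.427, adjusted p = 0.160 by edgeR).

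The libraries carried the markers of their labelled tissue. The 10 beta cell markers, insulin genes among them, summed to 20210 to 129800 CPM, and 0 of the 10 were called in either comparison. Acinar digestive enzyme genes ranged from 13.1 to 56770 CPM between libraries, with a wide range inside each group. Of 4 genes of other islet cells tested, Pyy, which encodes the hormone peptide YY, rose in C3H (log2 fold change 7.51, SE 1.02, adjusted p = 0.000476 by edgeR). It was the only 1 of the 4 called, where 0.883% of all genes were called higher. Endothelial markers summed to 195 to 752 CPM over all libraries, with 0 of 7 called in either comparison. Of 9 fibroblast and mural cell markers, 7 were lower after MK801 at an unadjusted p below 0.05, where 8.5% of all genes were. By edgeR 0 of the 9 were called. Total estimated counts were 38561334 to 57013815 per library.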

How the data were processed

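Tumour polyA RNA was sequenced from Illumina TruSeq libraries, per the labels' protocols. RSEM 1.2.12, Bowtie 1.0.1 and mm9 are named in the submitters' processing notes, without their roles, and neither annotation nor strandedness is given in the sources used here. For 23224 genes the authors deposited estimated counts, which were rounded here. Their normalized values (22484 genes), deposited as a signal, served as an alternative. How strain variants affected the counts was not tested.

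In R 4.3.3 with edgeR 4.0.16, filterByExpr left 16084 genes, libraries were scaled by TMM, and a quasi-likelihood fit held all 3 groups. Adjusted p-values are those of Benjamini and Hochberg over all 16084 genes, called below 0.05. CPM used the TMM-scaled library and log2 CPM a prior count of 2. Standard errors are log2 fold changes divided by the root of F. The steps were tested on simulated data. DESeq2 1.42.0, limma 3.58.1 with voom, other filters and scalings, GC, acinar and leukocyte covariates and leaving out each library were alternatives. Correlations used 100000 permutations within groups, 2-sided.

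Named were the 10 genes, in each pathway list those past the threshold or else the 2 with the smallest p, and the 5 highest and 3 lowest correlates of Cish. A result that this rule would name is not reported here. The members and lists were chosen with earlier results of these data known. Replicates of a group differed beyond sampling noise (chi-square per degree of freedom at least 116.6), but p-values measure the spread between libraries, which may be technical. GC content came from GENCODE M21 transcripts (98.6% of genes tested). Among the symbols, 25 had turned into dates and are not named, and 0 columns belonged to no sample.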

Additional observations from a re-analysis of the deposited data

Results flagged for a closer look

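Among 90 sets of values (30 named genes in 3 groups), 3 held a library far from the others of its group by Dixon's gap criterion, and chance gives about 1 in 20. Tnfrsf11b was at 6.09 CPM in B6 control replicate 7, the highest of its group, with a gap of 0.571 of the group's range. Eri2 was at 74.7 CPM in MK801 replicate 5, the lowest of its group (gap 0.838 of the range). Coil was at 17.2 CPM in C3H replicate 1, the highest of its group (gap 0.848 of the range). The 10 genes of the Cish and STAT5 circuit gave 0 of the 3.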

How the results depend on the processing

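The log2 fold change of Cish stayed between 2.49 and 2.91 in C3H and between -2.08 and -1.69 after MK801 over the settings other than leaving out a library. Of the 9 other members, 1 was called in C3H. The count was 0 with the replicate number as a block, alone or with the GC trend (Socs2 adjusted p = 0.183 and 0.169 by edgeR), 2 with the acinar score, 2 with DESeq2, 0 at a threshold of 0.01, 2 at 0.1 and 0 to 2 without a library. After MK801 it was 0 in each.

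Pathway genes called in C3H were 1, and 0 without a filter, at a mean CPM of at least 1, with the 2 groups alone, with the block, with the GC trend and block, with the leukocyte score, with voom and at 0.01 (0 to 2 without a library). With the GC trend the 1 gene called was another, Il3ra, which was higher (1.48, adjusted p = 0.0103 by edgeR) and is named after its values were seen, and Tslp did not pass (0.0521). After MK801 they were 2, and 1 without a filter, 1 at a mean CPM of at least 1, 0 with the 2 groups alone, 0 with the block, 6 with the GC trend, 5 with the GC trend and block, 0 with the leukocyte score, 9 with DESeq2, 4 on the authors' normalized values, 0 at 0.01 and 4 at 0.1 (0 to 4 without a library). Of the within-group pairs, 0 to 1 passed by Pearson's r without a library. By Spearman's rho, Jak2 passed without B6 control replicate 3 (permutation test, adjusted p = 0.0314). Without MK801 replicate 4, Jak2 and Stat5b passed (rho = 0.707 and 0.7, permutation test, adjusted p = 0.0367 for each). Cish per kilobase in the B6 controls was 1.40, or 2.97 with the mean transcript, and the motif with a wider spacer matched 0 members in place of 4.

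Directions that turned were all of genes not past the threshold. Stat5a in C3H was -0.073 with the block, -0.11 with the GC trend, -0.20 with both and -0.047 to 0.24 without a library. After MK801, Socs1 was 0.12 with the GC trend, 0.23 with voom, 0.061 on the authors' values and -0.85 to 0.42 without a library. Socs3 was -1.25 to 0.41 without a library, Prlr was 0.43 with the block and 0.05 with GC trend and block, and Stat5b was -0.015 with the block, -0.19 with the leukocyte score and -0.14 to 0.21 without a library. The cause was not tested.

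The labels name no pairing, and the main fit treated the groups compared as unpaired. Deviations of 9 same-numbered pairs of a B6 control with a C3H or MK801 library correlated at -0.312 to 0.114, with 1 over 0.1. The 4 pairs of C3H with MK801, which were not compared, correlated at 0.137 to 0.37. Pairs with different numbers were not set beside these, so whether the numbers mark a shared batch was not tested. Genes called over the whole table were 142 higher and 244 lower in C3H and 24 and 76 after MK801. DESeq2 called 261 and 533, and 105 and 536, while the block left 65 and 97, and 1 and 0. The 2 groups alone gave 102 and 129, and 7 and 3, and the GC trend gave 119 and 264 after MK801. Low counts limit Socs1 and most ligand genes.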
